A study of Mus musculus with 2 samples.

Results

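This report describes 42 genes of the cell cycle engine and of its p53 and Rb control in fetal mouse liver: cyclins, cyclin-dependent kinases (CDKs), CDK inhibitors, the Rb and E2F families, the Cdc25 phosphatases and Wee1, p53 and Mdm2, the proliferation markers Mki67 and Pcna, and the mitotic kinases. Each member was followed through every probe set that the platform annotation assigns to that gene alone. This gave 87 probe sets for 40 of the 42 genes, where the whole array covered 18193 genes in this way. Ccnb1 and Trp53 had no such probe set in the annotation used and were not analysed here.

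The samples were whole livers of mouse embryos at stage E14.5, strain label NMRI/C57Bl6 for both. One array was hybridized with RNA from a wild-type liver, and the other with RNA from a liver of the genotype Prox1 f/f;Foxa3Cre, called the knockout below. In that genotype both Prox1 alleles are floxed and Cre is expressed from Foxa3, which is active in endoderm including the future liver, so that blood cells and other cells that never expressed Foxa3 would keep the gene. How many embryos were pooled is not in the labels, nor whether the wild-type embryo carried Cre or a floxed allele. With 1 array per genotype there were no replicates, no error between animals and no test, and each difference is between these 2 RNA samples. In whole-liver RNA, fewer cells of a type and less RNA per cell cannot be told apart.

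Cell division is driven by cyclins, which switch on the CDKs. D-type cyclins with Cdk4 and Cdk6 begin to inactivate the Rb proteins and so release E2F factors, cyclin E and cyclin A with Cdk2 drive DNA replication, and cyclin B with Cdk1 drives mitosis. The Cip/Kip and Ink4 proteins inhibit these kinases, p53 induces the inhibitor gene Cdkn1a, Wee1 and the Cdc25 phosphatases set the timing of Cdk1 activity, and Plk1 and the Aurora kinases run the spindle. Liver at E14.5 is the main site of blood formation as well as a growing organ, and its dividing cells include erythroblasts, myeloid progenitors and hepatoblasts.

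Most of the cell cycle engine, like most measured genes, read nearly the same on both arrays. Of 39 measured members, 23 were under 1.2-fold apart and 35 under 1.5-fold apart, beside 58.4% and 84.9% of all measured genes. The exceptions by the 1.5-fold mark were Cdk2 (5.55-fold lower in the knockout), Cdkn1b (1.68-fold lower), Cdkn1a (1.998-fold higher) and Cdkn1c (1.58-fold higher), so that all 3 Cip/Kip inhibitor genes passed it, in both directions. On their brightest probe sets, Ccnd2, Cdk6, Wee1 and Ccng2 lay just below the mark, at 1.45-fold to 1.47-fold higher. The other Ccnd2 probe sets above the floor on both arrays passed it, at 1.57-fold to 1.99-fold. The second Ccng2 probe set was only 1.05-fold higher. Values are MAS5 signals of the gene's brightest probe set. A gene counts as measured where that probe set is above a common floor of 112.6 signal units, and log2 differences are above 0 where the knockout reads higher.

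The promoters of several members hold short words that match elements known to time cell cycle genes. Promoters are printed for Cdk2 and Cdkn1b, the lowest members in the knockout, and for Ccnb2, Cdk1 and Mki67, which read alike on both arrays. Each is the 250 bases before the annotated start, 5′ to 3′ on the gene's strand, from RefSeq on GRCm38.p6. Capitals mark matches on either strand to the CCAAT box bound by NF-Y (CCAAT), the cell cycle genes homology region read by the MuvB complexes (TTTGAA) and short E2F words, which are TTCCCGC with its variants TTGGCGC and also TTCGCGC.
Cdk2, chr10:128705052-128705301, minus strand: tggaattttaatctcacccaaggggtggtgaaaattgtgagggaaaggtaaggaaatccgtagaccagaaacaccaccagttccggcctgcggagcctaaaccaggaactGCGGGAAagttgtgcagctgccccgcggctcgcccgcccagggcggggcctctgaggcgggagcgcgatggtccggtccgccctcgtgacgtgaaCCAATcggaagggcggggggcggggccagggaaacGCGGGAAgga
Cdkn1b, chr6:134920151-134920400, plus strand: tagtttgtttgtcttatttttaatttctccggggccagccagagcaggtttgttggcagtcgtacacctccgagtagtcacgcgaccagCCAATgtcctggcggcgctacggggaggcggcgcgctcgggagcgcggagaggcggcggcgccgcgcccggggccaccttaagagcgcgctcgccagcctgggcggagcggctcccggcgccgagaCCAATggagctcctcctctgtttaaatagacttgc
Ccnb2, chr9:70421555-70421804, minus strand: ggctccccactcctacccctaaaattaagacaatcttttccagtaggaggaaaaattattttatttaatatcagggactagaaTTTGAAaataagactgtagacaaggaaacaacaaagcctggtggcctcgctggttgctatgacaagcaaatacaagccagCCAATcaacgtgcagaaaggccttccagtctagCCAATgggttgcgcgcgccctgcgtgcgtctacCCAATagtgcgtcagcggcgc
Cdk1, chr10:69352913-69353162, minus strand: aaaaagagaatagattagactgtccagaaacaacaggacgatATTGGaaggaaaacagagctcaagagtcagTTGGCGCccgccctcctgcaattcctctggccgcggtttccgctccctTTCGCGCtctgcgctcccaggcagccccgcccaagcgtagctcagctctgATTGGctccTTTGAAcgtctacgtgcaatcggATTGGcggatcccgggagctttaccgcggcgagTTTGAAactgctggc
Mki67, chr7:135716380-135716629, minus strand: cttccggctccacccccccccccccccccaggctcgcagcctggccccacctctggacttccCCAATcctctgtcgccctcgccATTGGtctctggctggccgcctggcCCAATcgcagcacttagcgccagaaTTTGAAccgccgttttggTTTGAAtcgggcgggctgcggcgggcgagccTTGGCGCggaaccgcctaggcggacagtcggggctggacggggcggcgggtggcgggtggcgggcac
In Ccnb2 the CCAAT boxes lie 87, 54 and 21 bases before the start, evenly spaced. Its only TTTGAA match lies at 167 bases, upstream of these boxes, and whether it acts as a homology region is not known here. Cdk1 carries CCAAT boxes at 208, 80 and 48 bases, TTTGAA at 71 and 15, and E2F words at 178 and 130. Mki67 has CCAAT boxes at 188, 166 and 141 bases, TTTGAA at 116 and 98 and an E2F word at 67. Cdk2 has a single CCAAT box at 45 bases with E2F words at 140 and 10, whereas Cdkn1b has CCAAT boxes at 161 and 35 and no match to the other words. These matches are descriptions of letters, not measured binding.

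Of the 42 members, 30 were in the promoter table, with 34 promoters. A CCAAT box stood in 55.9% of these and in 33.9% of all 32851 promoters of the same length. TTTGAA stood in 23.5% against 16.0%, and an E2F word in 23.5% against 6.69%. Among the 9 promoters of genes active in G2 and mitosis (Ccnb1, Ccnb2, Ccnf, Cdk1, Cdkn3, Cdc25b, Mki67, Plk1 and Aurka, a grouping made after the matches were seen), 9 held a CCAAT box, 7 held at least 2, and 5 held TTTGAA. Of the 25 other member promoters, 10 held a CCAAT box, 4 held at least 2, and 3 held TTTGAA. At least 2 CCAAT boxes stood in 10.1% of all promoters. Because the grouping followed the matches, these counts are no test of it. Ccna2, Cdc25c and Aurkb, also of this group, were not in the promoter table.

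The count of members past each size was read against all genes. At the 2-fold mark, 1 of 39 members was lower and 0 were higher, where 2.13% of 11397 measured genes were lower and 3.27% higher. At the 1.5-fold mark, 2 members were lower and 2 higher, against 5.21% and 9.87% of measured genes. The members' median log2 difference was -0.03, with quartiles of -0.13 and 0.17, beside a median of 0.03 and quartiles of -0.16 and 0.26 over all measured genes. The sign of the members' median flipped under quantile normalization and lowess correction, so it has no settled direction. Members are bright, and bright genes scatter less: among 4200 genes with a mean signal of at least 1000, 3.76% were at least 1.5-fold higher and 3.4% lower, and 1.17% and 1.36% passed 2-fold in those directions. Of 31 such members, 1 was at least 1.5-fold higher (Cdkn1c), 1 lower (Cdkn1b) and 0 were 2-fold apart. The share under 1.2-fold was 58.97% for members and 58.44% for all measured genes. Neither share of calls nor the share of near-equal genes thus set the members apart from measured genes in general.

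**Figure D1:**
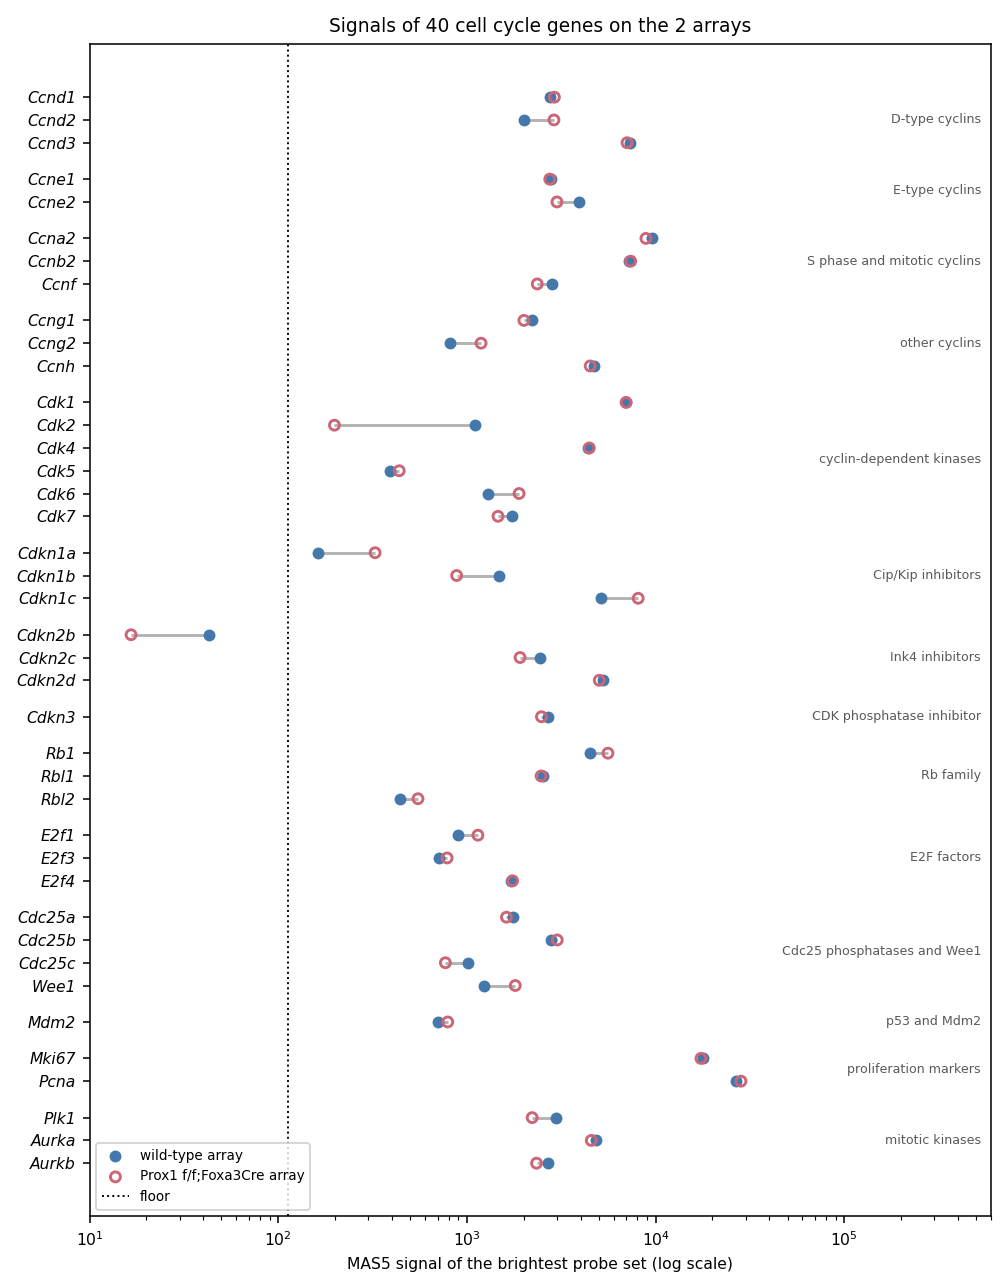
MAS5 signal of the brightest probe set of each of 40 genes (log scale) on the wild-type array (filled) and the Prox1 f/f;Foxa3Cre array (open), by role. Most pairs overlap; Cdk2 has the widest gap among measured genes (1102 and 198.5), and Cdkn2b lies under the dotted floor on both arrays.

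**Figure D2:**
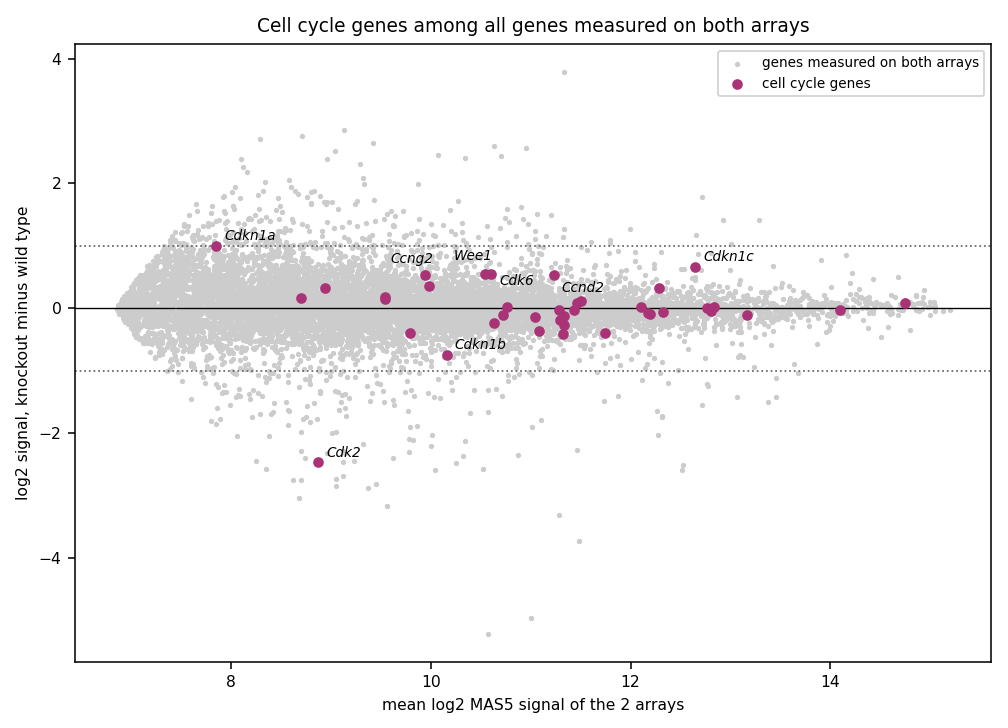
Log2 difference (knockout minus wild type) against mean log2 signal for genes measured on both arrays (grey) and cell cycle genes (purple), with dotted lines at 2-fold. Cdk2 stands at -2.47 and Cdkn1a at 0.999, and most other members lie close to 0.

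Agreement between probe sets was the only measure of error within a gene. Of 23 members with at least 2 measured probe sets, 16 had all of them in the same direction (69.6%, against 53.2% of 5269 genes overall). Both shares count bounds, whose sign is fixed by the array that was above the floor. Cdkn1a and Cdk5 are among the 16 only through such a bound. The median spread between a member's lowest and highest log2 difference was 0.22, against 0.33 over all genes. Members are brighter than measured genes in general, and dim genes scatter more. Neither comparison was made among bright genes alone, so neither sets the members apart. The 7 members whose probe sets pointed both ways were Ccnd1, Ccna2, Cdk7, Rbl2, E2f3, Cdc25a and Mdm2, and for these no direction is given. Differences of around 0.2 or less are therefore within what separate probe sets of 1 gene show. This is no upper limit, since the 0.22 is a median and the probe sets of Rbl2 ran from -0.56 to 0.33.

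**Figure D3:**
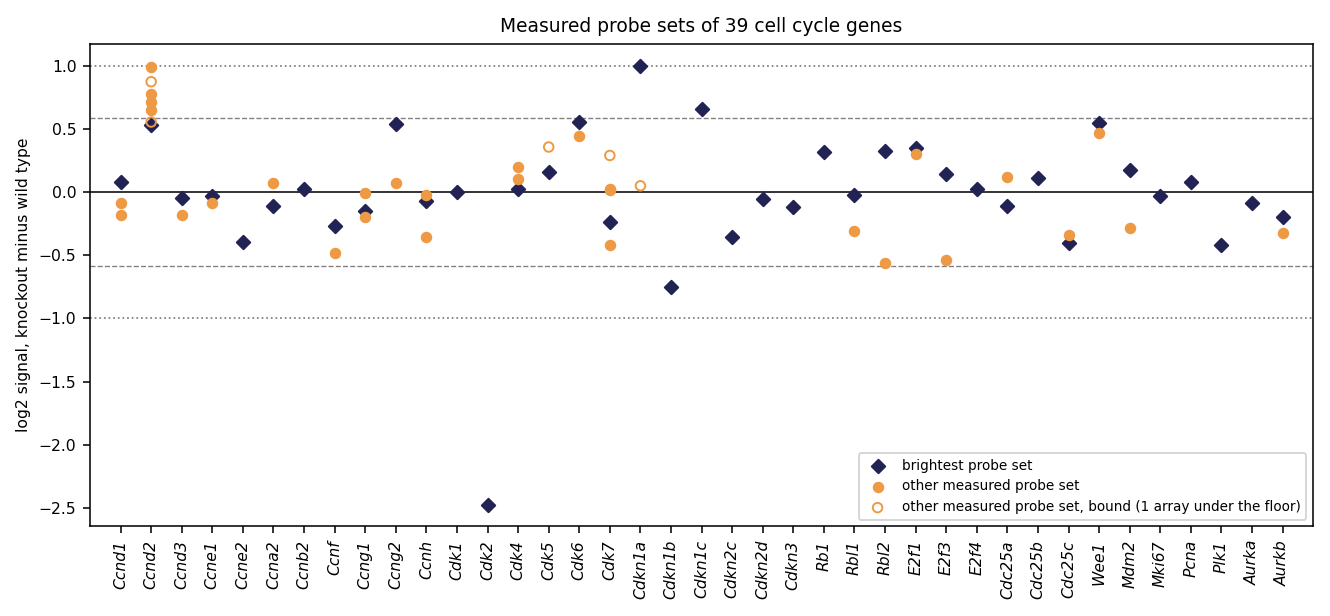
Log2 difference of each measured probe set of 39 genes, with the brightest as diamonds, others as circles and bounds (1 array under the floor) as open circles. Dashed lines mark 1.5-fold and dotted lines 2-fold. The Ccnd2 probe sets above the floor on both arrays lie above 0, from 0.53 to 0.99. The direction of its bounds is fixed by the filter. Rbl2 and E2f3 have probe sets on both sides.

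Among the D-type cyclins, which couple growth signals to Cdk4 and Cdk6, Ccnd2 had the largest difference. On its brightest probe set the signal went from 1998 in the wild-type liver to 2890 in the knockout, or 0.53 higher on the log2 scale. Further Ccnd2 probe sets above the floor on both arrays gave 1296 and 2035, 1051 and 1719, 919.5 and 1572, and 334.0 and 664.0. Another pair, at 109.5 and 165.3 and at 65.2 and 206.2, were under the floor in wild type and give bounds of 0.55 and 0.87. The probe sets above the floor on both arrays were thus all higher in the knockout. For the pair under the floor in wild type, the direction of the bounds is fixed by the filter. With the bounds included, the median over all 7 probe sets was 0.71, larger than the brightest one alone shows. Ccnd1 read 2746 and 2906, with its other probe sets slightly the other way (1640 and 1544, 1210 and 1067). Ccnd3 was nearly level at 7269 and 7051, with a dimmer probe set at 383.1 and 337.2.

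The E-type cyclins start DNA replication with Cdk2. Ccne1 was level, at 2802 and 2746 on one probe set and 1801 and 1698 on the other. Ccne2 read 3942 and 2998, 1.31-fold lower on its single probe set. Both genes were thus below 0, though Ccne1 by less than probe sets of 1 gene differ and just above 0 under quantile normalization.

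Among the cyclins of S phase and mitosis, Ccna2 and Ccnb2 were under 1.2-fold apart and Ccnf was just past that size. Cyclin A2 (Ccna2), the partner of Cdk2 in S phase, read 9586 and 8879 on one probe set and 8316 and 8729 on the other. Cyclin B2 (Ccnb2), a partner of Cdk1, read 7254 and 7372. Cyclin F (Ccnf), which works in an SCF ubiquitin ligase, was 1.203-fold lower at 2836 and 2357, and its dimmer probe set read 799.4 and 570.9. So the gene with 3 evenly spaced CCAAT boxes, Ccnb2, differed by 0.02 on the log2 scale.

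Other cyclins have roles outside the core cycle. Cyclin G2 (Ccng2), associated with cell cycle arrest, read 817.3 and 1188, 1.45-fold higher, but its second probe set was nearly level at 492.0 and 516.7. Cyclin G1 (Ccng1), a p53 target, was 1.11-fold lower at 2218 and 2003, with the other probe sets at 1327 and 1159 and at 765.5 and 761.5. Cyclin H (Ccnh), part of the CDK-activating kinase, read 4731 and 4498 on its brightest probe set, and 2766 and 2163 and 393.0 and 386.2 on the others. All 3 Ccnh probe sets were lower, by 0.02 to 0.35 on the log2 scale.

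Of the 6 kinases, only Cdk2 was far apart. Cdk2, the kinase of the G1 to S transition, went from 1102 in the wild-type liver to 198.5 in the knockout, which is -2.47 on the log2 scale. Only 20 of 10221 genes measured on both arrays, itself included, were as low or lower. The value rests on 1 probe set, because the other Cdk2 probe set was far under the floor, at 1.21 and 0.71. Cdk1, the mitotic kinase, was the most even member, at 6957 and 6967.

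Genes beside Cdk2 on chromosome 10 were read after its value was seen. Of the nearest 6 measured protein-coding genes on each side, 3 of 12 passed 1.5-fold downwards and 0 upwards, beside 5.21% and 9.87% of all measured genes. These were Rdh5, a retinol dehydrogenase (364.2 and 181.7), Suox, sulfite oxidase (638.4 and 356.2), and Mmp19, a matrix metalloproteinase (242.0 and 160.8). The nearest measured gene on each side of Cdk2 was not lower: Rab5b read 264.9 and 303.9, and Dgka read 176.6 and 238.7. The median of the 12 was -0.02.

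The kinases of G1 partner the D-type cyclins. Cdk6 read 1286 and 1889, 1.47-fold higher, and 1034 and 1403 on its second measured probe set. Cdk4 was level at 4370 and 4452, and its other probe sets read 4099 and 4709, and 3850 and 4129. Both Cdk6 and Cdk4 were thus higher on all measured probe sets, Cdk6 by 0.44 and 0.55 on the log2 scale and Cdk4 by 0.03 to 0.20. Cdk5, best known from neurons, read 391.9 and 437.6, and a dimmer probe set under the floor in wild type (71.2 and 144.1) gives only a bound. Cdk7, the catalytic part of the CDK-activating kinase, had 5 measured probe sets from -0.42 to 0.29, with the brightest at 1722 and 1461. The value of 0.29 is a bound (72.3 and 137.6), and the highest Cdk7 probe set above the floor on both arrays was at 0.03.

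The Cip/Kip inhibitors were the role in which all members passed 1.5-fold. Cdkn1a (p21), the classic p53 target, read 163.1 and 326.0, both not far above the floor, and its other probe set only just cleared the floor in the knockout (63.1 and 116.5), giving a bound of 0.05. Cdkn1b (p27), linked to quiescence, read 1485 and 881.7, a log2 difference of -0.75 on its 1 measured probe set, the other lying under the floor at 45.3 and 11.98. Cdkn1c (p57), an imprinted inhibitor of embryonic growth, read 5119 and 8082, a log2 difference of 0.66 on its single probe set. Cdkn1a and Cdkn1c were therefore higher and Cdkn1b lower in the knockout. As the median over its probe sets, Cdkn1a was below the mark at 0.52.

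The Ink4 inhibitors bind Cdk4 and Cdk6. Cdkn2c (p18) was 1.28-fold lower at 2452 and 1911. Cdkn2d (p19) was level at 5233 and 5025. Cdkn2b (p15) did not reach the floor (42.8 and 16.6) and gives no difference. Cdkn3, a phosphatase that acts on CDKs, read 2700 and 2482. None of the 3 measured genes here was higher in the knockout.

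Rb proteins hold E2F factors in check. Rb1 read 4476 and 5587, 1.25-fold higher. Rbl1 (p107) was level at 2517 and 2471, with a dimmer probe set lower at 185.0 and 149.0. Rbl2 (p130) gave opposite readings, 439.1 and 550.1 on one probe set and 300.5 and 204.1 on the other. The E2F factors were close: E2f1, an activator, read 897.7 and 1143 (1.27-fold higher, and 595.0 and 734.4 on the second probe set). E2f3 read 710.4 and 785.0 on its brightest probe set and 286.5 and 196.8 on the other. E2f4, a repressor in quiescent cells, was level at 1720 and 1745. E2f1 was the member of these families that was higher on more than 1 measured probe set.

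Mitotic entry depends on the balance of Wee1, which inhibits Cdk1, and the Cdc25 phosphatases, which activate it. Wee1 read 1233 and 1803, 1.46-fold higher, and 587.1 and 811.2 on its second probe set. Cdc25c was lower on both probe sets, at 1015 and 768.6 (1.32-fold) and at 462.5 and 365.1. These 2 genes thus lay in opposite directions, each on both probe sets. Cdc25b read 2786 and 3009. Cdc25a, active in S phase, read 1753 and 1619 on one probe set and 1278 and 1384 on the other.

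For p53 control only Mdm2, the ubiquitin ligase of p53, was read. Its probe sets disagreed, at 701.1 and 791.1 and at 640.9 and 526.0.

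The proliferation markers were very bright and level. Mki67, the Ki-67 antigen of cycling cells, read 17801 and 17377. Pcna, the sliding clamp of the replication fork, read 26744 and 28321, a signal near the top of the scale where MAS5 values can be compressed. The mitotic kinases were all below 0: Plk1 was 1.34-fold lower at 2966 and 2216, Aurkb read 2679 and 2337 (and 1834 and 1468), and Aurka was near level at 4855 and 4558. Aurkb was covered only by probe sets with a cross-hybridization suffix. Mki67 and Pcna thus differed by -0.03 and 0.08 on the log2 scale, and Plk1 and Aurkb by -0.42 and -0.20.

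The rest of the pathway was read from 9 lists. Of 187 measured places on these lists, 2 passed 2-fold upwards and 2 downwards, and 96.8% were under 1.5-fold apart. Over all measured genes 3.27% and 2.13% passed 2-fold and 84.9% were under 1.5-fold apart, but 63.1% of those genes had a mean signal under 1000, against 23.0% on these lists, and dim genes scatter more. Replication genes were even: of 39 origin licensing and replication fork genes, 20 were above 0 and 19 below, with a median of 0.01 and 0 past 1.5-fold. The lowest were Gins3 (498.8 and 392.2) and Orc2 (2522 and 2070), and the highest Rfc2 (2345 and 2815) and Rfc1 (1301 and 1513), both of the clamp loader. The sign of this small median flipped when probe sets were averaged by their median and when the median difference was set to 0. Of 13 genes of deoxynucleotide supply and other E2F targets, 0 passed 1.5-fold and the median was 0.0046, on either side of 0 over the alternatives. Hells (3164 and 2733) and Tk1 (4213 and 3870) were lowest. Chaf1b (1310 and 1418) and the maintenance DNA methyltransferase Dnmt1 (3327 and 4657) were highest.

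Spindle, kinetochore and cytokinesis genes were slightly lower as a group. Of 30 measured, 26 were below 0, beside 46.2% of all measured genes and 54.6% of those with a mean signal of at least 1000. The median was -0.13, and it stayed below 0 in each of the 8 alternatives, from -0.16 to -0.10. None passed 1.5-fold. Mad1l1, of the spindle checkpoint, was lowest (342.0 and 252.4), then Ect2, of cytokinesis (2684 and 2019). Bub3 (5707 and 6744) and Cdca8 (6314 and 6733) were highest. In this list and in Plk1 and Aurkb the direction was the same, while Ccnb2 and Cdk1 were level.

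Among 25 genes of the anaphase-promoting complex, SCF and Cks, 14 were below 0 and 0 passed 1.5-fold, with a median of -0.03 that turned above 0 with quantile normalization and without cross-hybridizing probe sets. Cdc27, a subunit of the complex, was lowest at 2249 and 1532, with Btrc at 1537 and 1119. Anapc2 (1672 and 1988) and Cks2 (12738 and 14310) were highest. Of 14 DREAM, MuvB, Foxm1 and remaining E2F and Dp genes, 1 was at least 2-fold lower. This was E2f5, a repressor E2F, which read 1799 and 662.2, a log2 difference of -1.44, and was also lower on its other probe sets at 832.2 and 477.4 and at 631.3 and 506.3. E2f5 was lower on all 3, by amounts from -1.44 to -0.32. The rest ran from Mybl2 (1479 and 1287) to Lin9 (322.1 and 380.8) and Lin52 (309.8 and 422.3). The 15 DNA damage checkpoint genes had a median of -0.12 and 0 past 1.5-fold, from Topbp1 (3886 and 3031) and Clspn (2319 and 1894) to Trp53bp1 (1179 and 1374) and Atm (510.1 and 639.7).

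Targets and regulators of p53 lay in both directions. Of 15 measured, 6 were above 0 and 9 below, with a median of -0.05. Plk2 was higher at 147.1 and 500.1 (3.40-fold), and Perp, a junction protein of epithelia, lower at 769.3 and 266.9 (2.88-fold), each on 1 measured probe set. Bbc3 read 296.0 and 215.0 and Aen 727.6 and 850.8. Of 22 other cyclins, CDKs and activators, 1 passed 2-fold, Cdk14, at 216.6 and 584.7 on the 1 measured of its 3 probe sets. Cdk5r1 (129.3 and 170.4) followed, and Cdk5rap1 (540.9 and 388.5) and Ccnc (358.2 and 271.7) were lowest. Among 14 genes of growth signals upstream of D cyclins, the 2 at least 1.5-fold higher were Id3, an inhibitor of basic helix-loop-helix factors (563.1 and 1071), and Mxd4, of the Myc antagonist family (285.3 and 516.4). Foxo1 (396.8 and 292.0) and Max (287.7 and 212.4) were lowest.

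**Figure D4:**
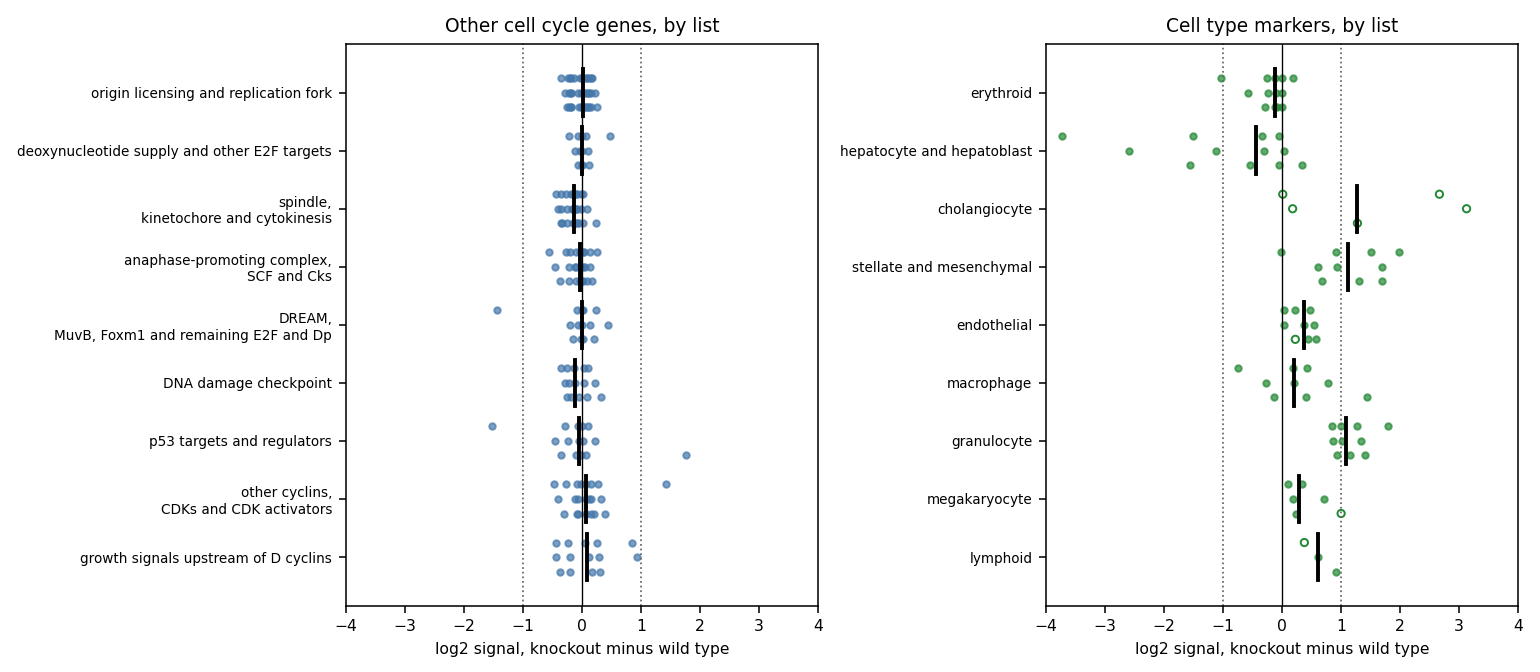
Log2 difference of each measured gene in 9 lists of other cell cycle genes (left) and 9 lists of cell type markers (right), with the list median as a black bar, bounds as open circles and dotted lines at 2-fold. The cell cycle lists sit close to 0, while granulocyte (1.09) and stellate and mesenchymal (1.12) medians are high and the hepatocyte and hepatoblast median (-0.45) is low.

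Marker genes of several cell types were also apart. All 10 granulocyte markers were higher (median 1.09, summed signal 35195 in wild type and 73763 in the knockout), as were 9 of 10 stellate and mesenchymal markers (median 1.12, summed signal 9384 and 19389). Of 12 measured hepatocyte and hepatoblast markers, 10 were below 0 (median -0.45, summed signal 234677 and 182955). At least 2-fold lower were 5 of them, with Ahsg (10437 and 788.4) and Cps1 (2580 and 427.6) lowest, and 0 were 2-fold higher. Alb, Afp and Ttr differed by 0.03, -0.05 and -0.05, although at such bright signals MAS5 can compress a difference. Erythroid markers were lower in 10 of 13 and above 0 in 3 (median -0.12, summed signal 169386 and 149744). Most differed slightly, but Hbb-bh1 was 2.06-fold lower (18806 and 9144) and Tfrc 1.49-fold lower (18272 and 12255). The 5 measured cholangiocyte markers were under the floor in wild type and passed it in the knockout alone, so their direction is fixed by the filter. Endothelial markers were higher in 9 of 9 (4174 and 5016), macrophage in 6 of 9 (10549 and 13639), megakaryocyte in 6 of 6 (14639 and 17671) and lymphoid in 3 of 3 (836.8 and 1480). Tie1 (82.5 and 131.5), Gp6 (103.8 and 225.1) and Pax5 (102.0 and 146.2) entered these counts through the knockout alone. For them too the direction is fixed by the filter. No measured marker was at 0, and under the floor on both arrays were 1 hepatocyte and hepatoblast, 2 cholangiocyte and 5 lymphoid markers. These shifts stand beside every member above, in particular beside Ccnd2, Cdk6, Cdkn1c, Cdkn1a, Cdk2 and Cdkn1b and beside the spindle list, and their part in those differences was not tested.

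The label was checked on Prox1, which was lower in the knockout on its brightest probe set (340.3 and 221.8), with its other probe sets under the floor there (205.9 and 111.8, 175.4 and 66.7). No source used here places these probe sets inside or outside the deleted part. The sex-linked genes differed, with Xist at 11467 and 365.7 and the Y-linked Eif2s3y at 0.87 and 1972. Sex and genotype cannot be told apart here, and 0 of the 42 members lie on the X or Y chromosome. Of 45037 probe sets, 21588 were above the floor in wild type and 22518 in the knockout.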

How the data were processed

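Single-colour Affymetrix arrays were compared, 1 per genotype. The authors deposited linear MAS5 intensity values, 1 per probe set, per the submitters' processing notes, with no version given in the sources used here. MAS5 subtracts mismatch signal, so dim probe sets scatter. Signals were used as deposited. Of 45101 probe sets, 64 controls were left out. The platform annotation gave 1 symbol to 34945 of the rest, several to 932 and none to 9160, and names were checked by identifier against RefSeq genes of GRCm38.p6 (34741 matched, 0 changed). Signals below 112.6, the higher of the arrays' 50th percentiles, were raised to it before log2. Each gene was represented by its brightest probe set (by mean log2 signal). Where 1 array was under the floor the difference is a bound. Genes were counted at 2-fold and 1.5-fold. With 1 array per genotype no test was possible, and the number of arrays limits the precision. Named genes were all members, and the 2 highest and 2 lowest of each of 9 pathway lists, with other genes chosen after their values were seen. Members and lists were chosen with earlier results of these data known. The alternatives were other floors, no floor, the median over probe sets, leaving out cross-hybridizing probe sets, and quantile, median and lowess scaling. The software was Python 3.11.15 with statsmodels 0.14.6, pandas 2.3.3, numpy 2.4.6 and matplotlib 3.10.9, and the counting was tested on simulated data.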

Additional observations from a re-analysis of the deposited data

How the results depend on the processing

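Cdk2, Cdkn1b and Cdkn1c stayed past 1.5-fold in the same direction. Their log2 differences ran from -2.52 to -2.47, from -0.77 to -0.75 and from 0.64 to 0.71. Each has 1 measured probe set, above every floor used and without a cross-hybridization suffix. Only the quantile, median and lowess scaling could therefore move these values, and the other alternatives are no check on them. Cdkn1a ran from 0.52 to 0.999 and fell short of 1.5-fold only as the median over its probe sets. With that same setting Ccnd2 passed 1.5-fold, at a log2 difference of 0.71. The number of members at least 2-fold lower was 2 in place of 1 with no floor and no filter, where the dim gene Cdkn2b is counted as well. The count 2-fold higher stayed at 0 in all settings and the counts at 3-fold were 1 lower and 0 higher. The members' median changed sign with quantile normalization (0.0075) and lowess correction (0.0012) and lay between -0.055 and -0.012 in the other alternatives. Of 311 values of single members under the alternatives, 306 moved by less than the robust SD of genes of like signal and 5 by more: Ccnh without cross-hybridizing probe sets, and Cdk7, Cdkn1a, Rbl2 and E2f3 as medians over probe sets. The 306 include values that an alternative could not change, such as those of bright members with 1 measured probe set. For Aurkb no value could be had without cross-hybridizing probe sets. No paired analysis was possible because each genotype has 1 array. With single arrays and MAS5 signals, differences of dim genes such as Cdkn1a are the least certain.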
